A study of Mus musculus with 1187 samples.

Results

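The heat shock chaperones described here are 7 genes of the deposited count table, which lists 46517 genes: Hspa1a, Hspa1b, Hspa5, Hspa8, Hsp90aa1, Hspb1 and Dnajb1. They were taken by gene symbol, and each was read cell by cell and plate by plate and set against the immediate early genes Fos and Jun of the same cells. All 7 were present and all passed the filter on low values used below. The cells are single brain endothelial cells of C57BL/6 mice aged 3 months. The mice carried the retention-motif mutation of Pdgfb, a growth factor of endothelium that attracts pericytes, together with a Cldn5-GFP and a Cspg4-DsRed reporter. Cells were sorted as GFP-positive and DsRed-negative, so the population is defined by a tight junction gene and by absence of a pericyte and oligodendrocyte precursor gene. The labels name 597 cells of pericyte-deficient Pdgfb ret/ret mice and 590 cells of control Pdgfb ret/+ mice, without an animal. The table names its 1187 columns by plate and well and the labels give neither, so no column could be given a genotype and ret/ret is not compared with ret/+ here. The cells are described as 1 pooled sample on the plates 521, 522, 523 and 524. Plate may coincide with genotype or animal, and these cannot be told apart. Plates 521 and 522 together hold as many cells as there are ret/+ labels, 590. Plates 523 and 524 together hold as many as there are ret/ret labels, 597. No label links a plate to a genotype, so this match was not used. Cells and plates were not used as replicates of a condition.

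Molecular chaperones bind unfolded protein and help it to fold or to be degraded. When unfolded protein builds up in the cytosol, the transcription factor HSF1 binds heat shock elements and raises inducible chaperones of the HSP70, HSP90 and small heat shock protein families. Unfolded protein in the endoplasmic reticulum (ER) is instead sensed by the unfolded protein response, whose best known target is the ER chaperone BiP. Fos and Jun encode subunits of the transcription factor AP-1 and are induced quickly by growth factors, flow and stress.

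The proximal promoters are shown because chaperone genes under HSF1 and those under the unfolded protein response are known to carry different elements. RefSeq windows on GRCm38.p6 were at hand for 5 of the 7 genes, namely Hspa1a, Hspa1b, Hspa5, Hspb1 and Dnajb1, and for Fos and Jun. Each line gives the 150 bases before the transcription start on the gene's own strand. Capitals mark a match to a heat shock element of 2 units (GAANNTTC or TTCNNGAA, N being any base) or to the ER stress response element (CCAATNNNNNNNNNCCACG), both searched on both strands. The Hspa1a stretch is chr17:34972157-34972306 on the minus strand, Hspa1b chr17:34959239-34959388 on the minus strand, Hspb1 chr5:135887769-135887918 on the plus strand, Jun chr4:95052223-95052372 on the minus strand and Hspa5 chr2:34771940-34772089 on the plus strand.
Hspa1a: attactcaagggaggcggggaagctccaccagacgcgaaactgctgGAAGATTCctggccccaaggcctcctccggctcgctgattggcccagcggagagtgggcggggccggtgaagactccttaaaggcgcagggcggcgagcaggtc
Hspa1b: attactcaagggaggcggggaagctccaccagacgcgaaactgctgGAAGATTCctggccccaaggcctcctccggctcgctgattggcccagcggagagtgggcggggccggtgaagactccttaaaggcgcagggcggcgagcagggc
Hspb1: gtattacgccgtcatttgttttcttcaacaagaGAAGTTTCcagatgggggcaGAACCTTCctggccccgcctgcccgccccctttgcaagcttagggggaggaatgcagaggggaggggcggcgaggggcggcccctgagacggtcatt
Jun: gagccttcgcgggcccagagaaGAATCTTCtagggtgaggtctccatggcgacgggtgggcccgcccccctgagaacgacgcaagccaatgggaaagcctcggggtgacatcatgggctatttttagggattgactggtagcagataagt
Hspa5: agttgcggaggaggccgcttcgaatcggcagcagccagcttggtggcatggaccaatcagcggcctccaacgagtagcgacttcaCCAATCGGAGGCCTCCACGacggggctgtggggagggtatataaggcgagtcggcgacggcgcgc

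Within the whole window of 250 bases before to 50 bases after the start, Hspa1a and Hspa1b each held 1 heat shock element match, 104 to 97 bases before the start. Hspb1 held 2 matches and Jun held 1. Neither Hspa5, nor either Dnajb1 window, nor Fos held one, which says only that these letters are not in these windows. The match is a common one: 15.1% of 32851 promoter windows of this length held it. A run of 3 units (GAANNTTCNNGAA or TTCNNGAANNTTC), which contains the shorter match, was in 0.603% of windows and in none of those printed. Hspa5 alone of these genes held the ER stress response element, 65 to 47 bases before the start, against 0.119% of all windows. The Hspa1a and Hspa1b windows were 98.7% identical and differed at 4 of 300 bases, C44T, T47C, T249G and C276T, with the Hspa1a base first and positions counted from 1 at the 5′ end of the window. A match describes the letters and is neither a bound site nor a cause of a level.

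The table held 418924921 reads assigned to genes. Cells had 100779 to 584112 reads with a median of 360947, and plates 521 to 524 held 300, 290, 285 and 312 cells. Smart-seq2 makes full-length cDNA without molecular identifiers, so the intervals given below on CPM cover counting error only. Those on shares of cells treat the cells as independent draws. Neither covers differences between plates, and values are also given by plate. Endothelial identity was clear in the markers: all 10 listed brain endothelial genes were at 20 CPM or more (CPM is a depth-scaled read count, taken relative to all reads of that cell or sum), and every cell had at least 3 of them at 100 CPM or more. The lists for pericytes, smooth muscle, astrocytes, microglia, oligodendrocytes, neurons, fibroblasts and erythroid cells summed to between 12.1 and 229.6 CPM each, and 23 cells had 3 or more markers of such a type at 100 CPM or more. The cells had been dissociated and sorted before lysis, and levels before that step were not measured.

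Most of the chaperones were abundant transcripts in these cells. Of 35549 genes with a read, Hspa5, Hspa8, Hspa1a, Hsp90aa1 and Hspb1 ranked from 216 to 442 by CPM. Hspa1b ranked 2479 and Dnajb1 2523. Together the 7 chaperones took 2357 CPM (2352 to 2361, exact Poisson interval at 95%), with 2063, 2478, 2345 and 2550 CPM on plates 521 to 524. When each cell was thinned to 100000 reads, all cells had a read of at least 1 of the 7, and 213 cells (17.9%) had a read of every one. A further 400 cells (33.7%) had 6 of 7, and 6 cells had 1. By summed CPM the order was Hspa5, Hspa8, Hspa1a, Hsp90aa1, Hspb1, Hspa1b and Dnajb1. Per kilobase of exon the order was different, with Hspb1, a short gene, first at 321.2 CPM per kb, Hspa1a at 150.7, Hspa5 at 118.9, Hspa8 at 110.7, Hsp90aa1 at 101.4, Hspa1b at 36.2 and Dnajb1 at 31.0 CPM per kb. These lengths include stretches that also occur in other genes, 66.3% of those of Hspa1a but 0% of those of Hspa5. The order may therefore depend on how shared reads were counted, which is not known. In the order by CPM, the plate ranges of neighbours overlapped except between Hspb1 and Hspa1b. On the same scale Jun stood at 228.2 and Fos at 346.5 CPM per kb.

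Hspa1a and Hspa1b encode the inducible cytosolic HSP70 and lie close together on chromosome 17, from 34969190 to 34972156 and from 34956436 to 34959238 on GRCm38, both on the minus strand. Hspa1a had 295.3, 498.3, 465.0 and 535.0 CPM on plates 521 to 524 and 447.2 CPM over all cells. Hspa1b had 41.3, 82.1, 129.3 and 152.5 CPM on the same plates and 101.5 CPM over all cells. Plate 521 was lowest for both. The pair was spread widely over cells: 243 cells (20.5%, Clopper-Pearson 18.2% to 22.9%) had no read of either gene, 138 cells (11.6%) had up to 50 CPM of their sum, 91 cells (7.67%) lay between 50 and 200 CPM, 169 cells (14.2%) between 200 and 500 CPM, 267 cells (22.5%) between 500 and 1000 CPM and 279 cells (23.5%) above 1000 CPM. These ranges are of unequal width, so their counts do not show where cells are densest. Cells with no read of the pair made up between 9.94% and 30.3% of a plate, and cells above 1000 CPM between 10.3% and 31.1%.

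Hspa8 encodes the constitutive cytosolic HSC70 (chromosome 9, 40800984 to 40810087, plus strand) and was the most even of the 7. It had 451.5, 520.4, 473.1 and 463.6 CPM on plates 521 to 524 and a read at 100000 reads in 98.4% of cells (97.5% to 99.0%). The coefficient of variation of CPM over cells was 0.45 for Hspa8, against 0.67 for Hspb1, 1.01 for Hsp90aa1, 1.02 for Hspa5, 1.03 for Hspa1a, 1.26 for Hspa1b and 2.15 for Dnajb1. The 10% of cells with the most Hspa8 held 19.4% of its reads. Hsp90aa1, the stress-inducible cytosolic HSP90 (chromosome 12, 110690605 to 110702728, minus strand), had 314.5, 445.4, 368.6 and 467.8 CPM on the plates and was read in 88.2% of cells (86.2% to 90.0%). Hsp90aa1 stood at 101.4 CPM per kb, against 482.9 CPM per kb for its constitutive relative Hsp90ab1. Here too the handling of shared reads is not known.

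Hspb1, the small heat shock protein HSP25 that holds unfolded protein and binds actin (chromosome 5, 135887919 to 135889563, plus strand), had 269.6, 299.7, 384.5 and 370.4 CPM on plates 521 to 524 and was read in 96.3% of cells (95.1% to 97.3%). Its level was higher on plates 523 and 524 than on 521 and 522. Dnajb1 encodes the HSP40 co-chaperone that delivers substrates to HSP70 (chromosome 8, 83608193 to 83612653, plus strand). It had 99.3, 81.5, 103.0 and 112.6 CPM on the plates and was read in only 32.6% of cells (29.9% to 35.4%). The 10% of cells with the most Dnajb1 held 63.9% of its reads, 50 cells had 500 to 1000 CPM and 7 cells had more. Hspa5 encodes BiP, the HSP70 of the ER lumen (chromosome 2, 34771970 to 34777547, plus strand), and had 591.2, 550.6, 421.1 and 448.2 CPM on plates 521 to 524. Unlike Hspa8, it was missing from many cells: it was read in 75.6% at 100000 reads (73.0% to 78.0%), and 243 cells had none at full depth. By plate this share ran from 66.0% on 523 to 83.3% on 521, beyond that interval.

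**Figure D1:**
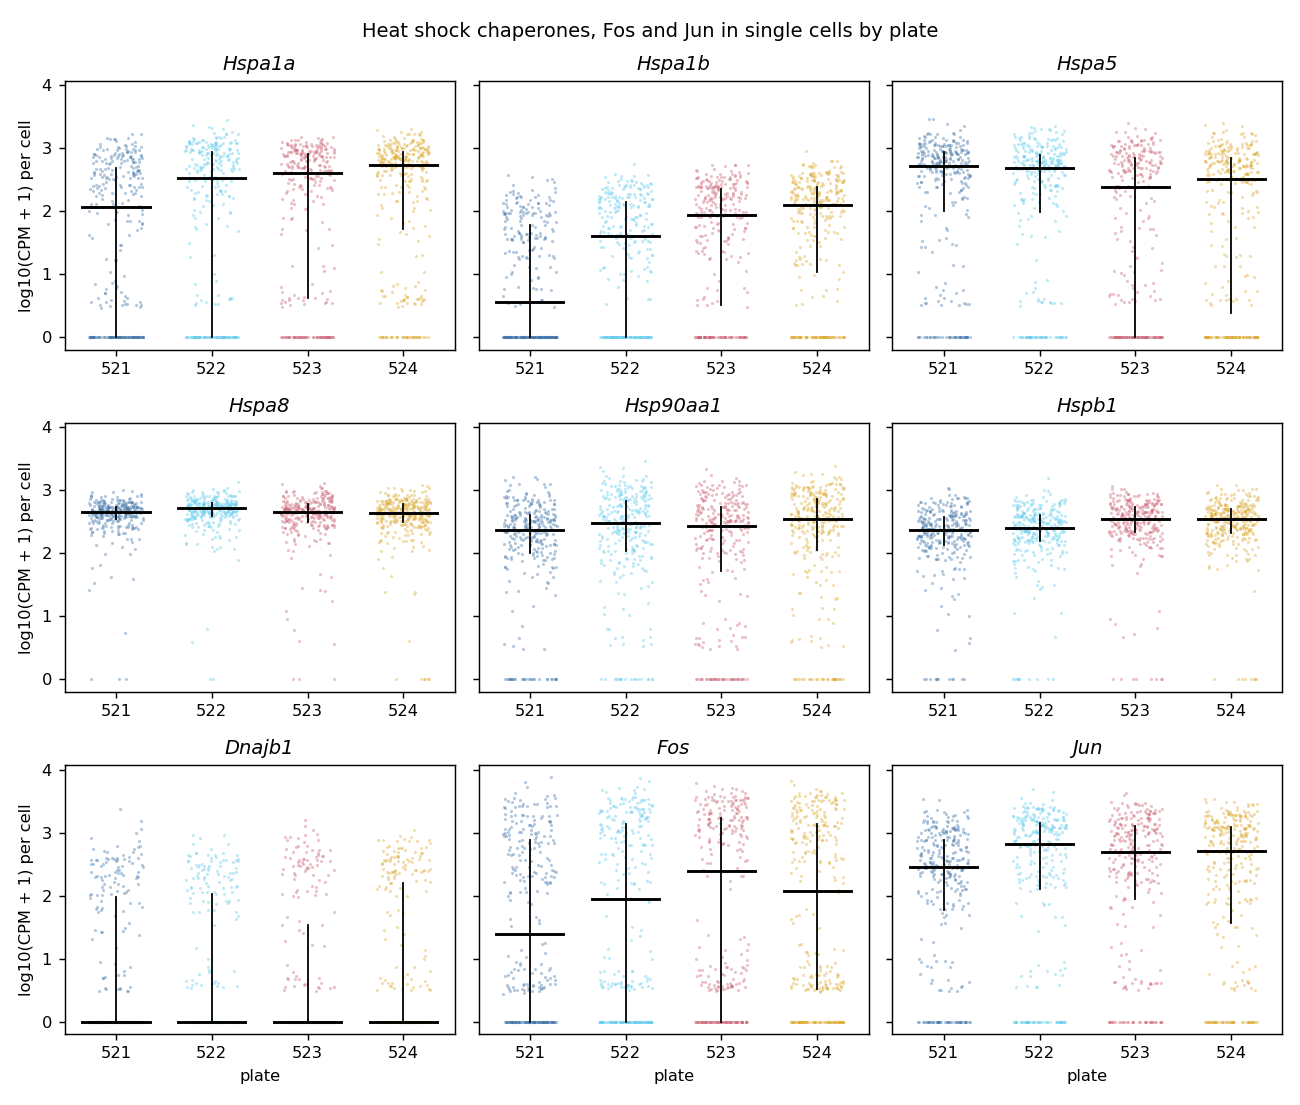
CPM of each chaperone, Fos and Jun in every cell (log10 of CPM + 1, vertical axis) by plate (horizontal axis); each point is 1 cell, the thick line is the median and the thin line spans the quartiles. Hspa8 and Hspb1 form compact clouds, whereas Hspa1a, Hspa1b, Hspa5, Dnajb1, Fos and Jun have a band of cells at 0 below the cells with many reads.

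Plates differed most in Hspa1b and Hspa1a. The highest plate stood 3.69 times above the lowest for Hspa1b and 1.81 times for Hspa1a, against 1.15 times for Hspa8 and between 1.38 and 1.49 times for Dnajb1, Hspa5, Hspb1 and Hsp90aa1. So 2 of 7 chaperones were 1.5-fold or more apart between plates, while 42.1% of all 8240 genes at 20 CPM or more were, and the chaperones did not stand out from this background. Fos and Jun were 1.72 times apart, again with plate 521 lowest, at 579.0 CPM for Fos and 509.5 CPM for Jun. Without plate 521 the ratio was 1.15 for Hspa1a and 1.86 for Hspa1b, and 1 of 7 was past 1.5-fold. Hspa5 went the other way, being highest on plate 521. The part of genotype, animal and handling in these plate differences cannot be told apart.

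The counts of Hspa1a and Hspa1b can be separated only in part. Of the 50-base stretches of Hspa1a transcripts in GENCODE M21, 58.8% also occurred in Hspa1b, and of those of Hspa1b 62.3% occurred in Hspa1a. No source used here says how reads that match both were handled. Among 1187 cells, 782 had reads of both genes, 135 of Hspa1a alone, 27 of Hspa1b alone and 243 of neither. Hspa1b took 12.3%, 14.1%, 21.8% and 22.2% of the reads of the pair on plates 521 to 524. In the 801 cells with at least 20 reads of the pair, this share had a median of 11.4%, 13.3%, 20.0% and 21.0% on those plates. The share was thus larger on plates 523 and 524 in the single cells as well as in the sums. The cause was not tested. The antisense gene Gm20481 has all of its 564 exonic bases inside the Hspa1a exon, its 41113 reads came to 21.9% of those of Hspa1a, and none of its 826 cells lacked Hspa1a. Nor does a source say whether reads were counted by strand, so these reads cannot be told apart from those of Hspa1a. For the other members, shared 50-base stretches came to 39.4% for Hspa8, 47.5% for Hsp90aa1 and 50.1% for Hspb1. They were shared mainly with pseudogenes, and those in the table had few reads, such as Hsp25-ps1 with 371 reads. Hspa5 shared 0% and Dnajb1 0.412%. Because of this, the sum of Hspa1a and Hspa1b is used below.

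Cells of a plate were then ranked by their reads at fixed depth, and Spearman's rho between genes was averaged over the 4 plates. These values describe cells of 1 pooled sample; the cells of a plate share their plate, and the genes of a cell share its library, so no p-value is given. Hspa1a and Hspa1b varied together from cell to cell, with a rho of 0.85 (0.78 to 0.90 over plates); the part of shared sequence in this value was not tested. Their sum had a rho of 0.47 with Hsp90aa1 (0.41 to 0.55), 0.44 with Hspb1 (0.37 to 0.51) and 0.22 with Hspa8 (0.067 to 0.29). With Dnajb1 it was 0.14 and with Hspa5 0.057, and the range from 5% to 95% of all genes was -0.041 to 0.081. Hsp90aa1 and Hspb1 had a rho of 0.30 with each other (0.27 to 0.36). Over the 21 pairs of chaperones the median was 0.16, and 9 pairs reached 0.2. Hspa1a was in 4 of these and Hspa1b in 4, with the same partners Hspa8, Hsp90aa1 and Hspb1 besides each other. These are therefore not separate observations. For comparison, the median rho of the sum of Hspa1a and Hspa1b with 8042 genes was 0.020, and 0.435% of them reached 0.2 when genes sharing its reads were set aside.

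Hspa5 and Dnajb1 had the lowest rho with the rest of the chaperones. For Hspa5 it ran from 0.048 to 0.14 over the other 6, with a median of 0.068, and for Dnajb1 from 0.058 to 0.17, with a median of 0.11. Neither reached 0.2 with any of them, but 0% of all genes reached it with Hspa5 and 0.0124% with Dnajb1, so nothing particular to the chaperones is read from this. The 5 genes ranked most like Hspa5 over 4 plates were Calr, an ER lectin chaperone, at 0.17 (0.12 to 0.21), the lysosomal enzyme gene Hexa at 0.15, Hspa8 at 0.14, the semaphorin and VEGF receptor gene Nrp2 at 0.14 and the amino acid transporter gene Slc38a2 at 0.13. All of these are weak.

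**Figure D2:**
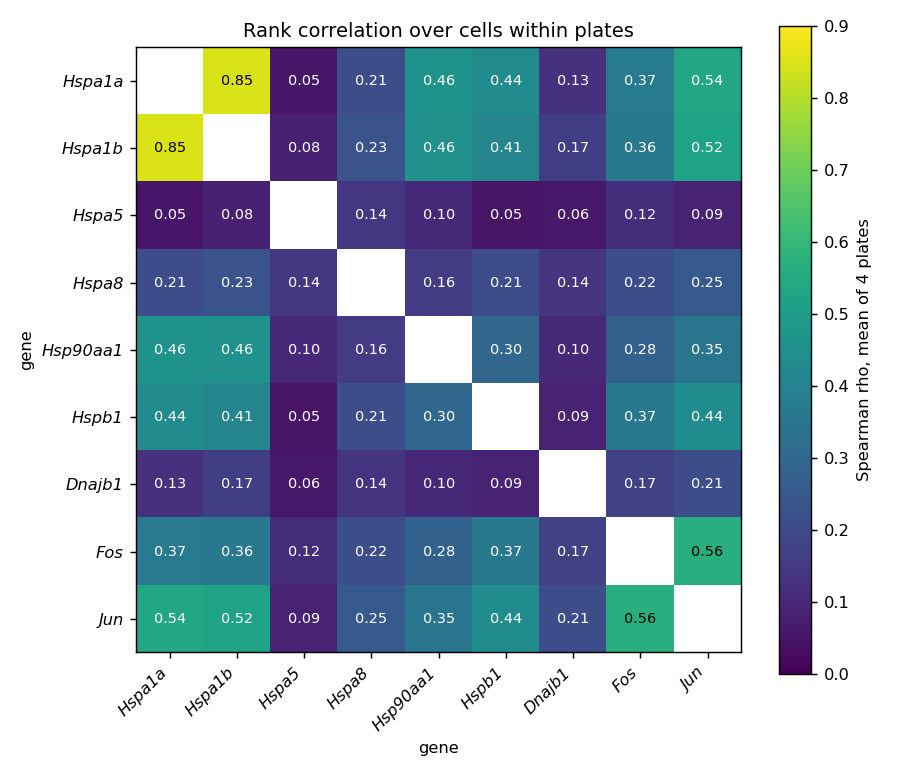
Spearman's rho between each pair of genes over the cells of a plate at 100000 reads, averaged over 4 plates (colour and printed value). The block of Hspa1a and Hspa1b at 0.85 extends to Jun, Hsp90aa1, Hspb1 and Fos, whereas the row of Hspa5 stays at or below 0.14 and that of Dnajb1 at or below 0.21.

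Jun was the gene that followed the Hspa1 pair most closely apart from their antisense partner. The rho of the pair with Jun was 0.55, with 0.42, 0.55, 0.62 and 0.62 on plates 521 to 524, and with Fos it was 0.38, with 0.22, 0.35, 0.49 and 0.47. Plate 521 was lowest for both. For scale, Fos and Jun had a rho of 0.56 with each other (0.53 to 0.59). Next to the pair came Hspb1, with 0.44 to Jun and 0.37 to Fos, and Hsp90aa1, with 0.35 and 0.28. Hspa8 had 0.25 to Jun and 0.22 to Fos, Dnajb1 0.21 and 0.17, and Hspa5 0.089 and 0.12. So 6 of the 7 chaperones reached 0.2 with Jun, against 0.672% of all genes tested, and 5 of 7 reached it with Fos, against 0.771%. Both counts take Hspa1a and Hspa1b as 2 genes, although their reads can be separated only in part. Among genes at least as abundant as Dnajb1, the least abundant member, 1.59% reached 0.2 with Jun and 1.75% with Fos. Over 11 settings, rho of Dnajb1 with Jun ran from 0.198 to 0.229 and that of Hspa8 with Fos from 0.168 to 0.238. Both counts of chaperones therefore depend on the setting.

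The same was seen in which cells had a read at all. At 100000 reads, the pair was read in 784 of the 966 cells with a Jun read (81.2%, 78.5% to 83.6%) and in 84 of the 221 cells without (38.0%, 31.6% to 44.8%). On plate 521 these shares were 70.2% and 25.5%, on 522 79.5% and 35.7%, on 523 85.6% and 36.7%, and on 524 89.2% and 52.5%. With Fos the shares were 82.6% of 712 cells with a read and 58.9% of 475 cells without. Hspa5 was read in 78.1% of cells with a Jun read and in 64.7% of those without, a smaller gap. Hspa8 was read in 98.8% and 96.8%.

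The pair was higher in cells with more Jun. The median CPM of the pair was 2.32 in the 173 cells with no Jun read at full depth, 24.5 in 250 cells with up to 200 CPM of Jun, 520.1 in 390 cells with 200 to 1000 CPM, and 989.4 in 374 cells above 1000 CPM. The means climbed less, with 164.8, 231.0, 563.2 and 946.6 CPM over the same ranges. In cells with no Jun read the median was 0 on plates 521, 522 and 523 and 29.6 CPM on plate 524. On plate 521 the last step was small, with medians of 354.4 and 394.6 CPM in the upper 2 ranges, whereas on plate 522 they were 348.0 and 976.4 CPM. Over the same 4 ranges of Jun, the median of Hsp90aa1 was 151.7, 162.9, 311.3 and 464.7 CPM and that of Hspb1 was 188.7, 221.0, 310.0 and 446.1 CPM. Hspa8 moved less, with 408.3, 436.1, 466.1 and 540.7 CPM. Hspa5 had 155.3, 439.1, 442.5 and 430.3 CPM, but the plates differed in order. On plate 521 its median was 202.8, 433.5, 561.0 and 632.7 CPM over the ranges, on 522 197.9, 545.6, 475.4 and 493.6, on 523 249.5, 313.1, 140.7 and 370.0, and on 524 20.5, 426.7, 336.4 and 385.4 CPM.

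**Figure D3:**
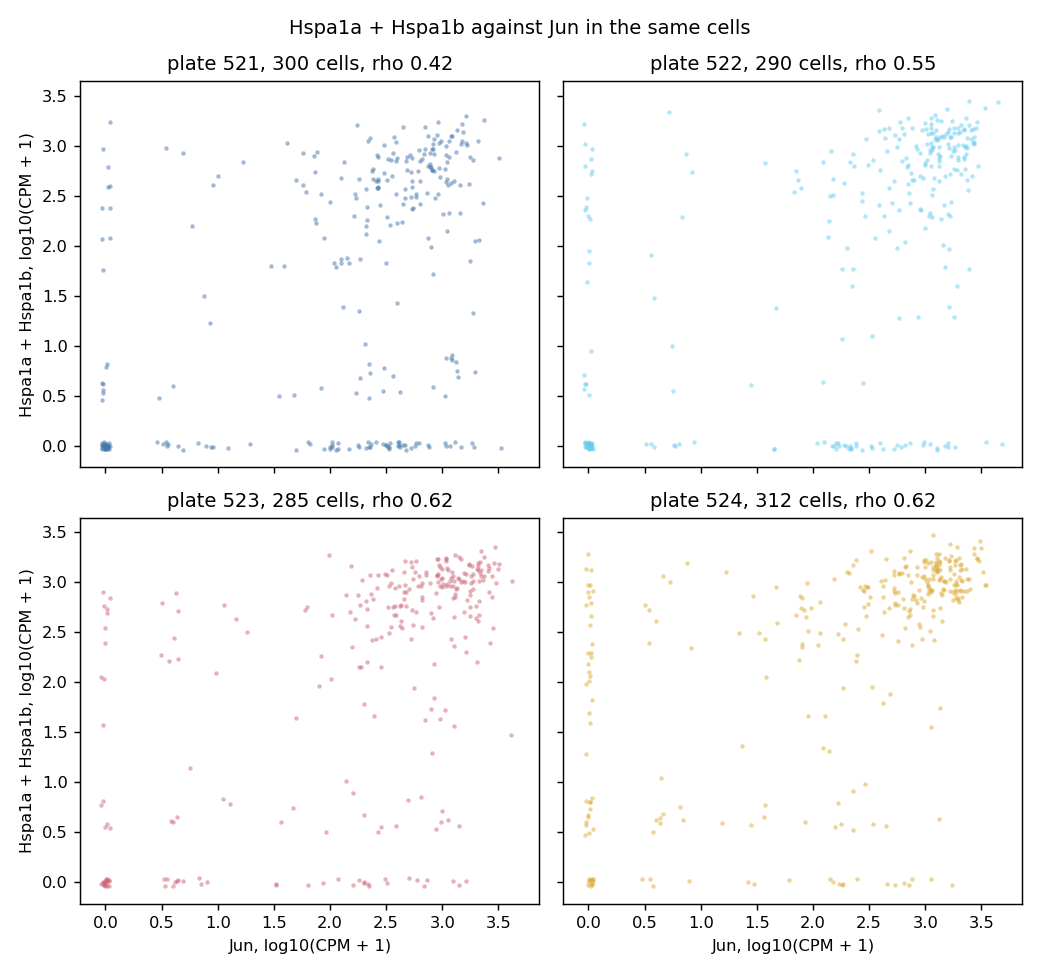
Sum of Hspa1a and Hspa1b against Jun in each cell (log10 of CPM + 1 on both axes, 1 panel per plate, 1 point per cell, with slight jitter). Most cells lie either at high values of both or near 0 of the pair, with a rho of 0.42, 0.55, 0.62 and 0.62 on plates 521 to 524.

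The genes that ranked most like the Hspa1 pair over all 8042 tested were, as the 10 highest, Gm20481 at 0.96, Jun at 0.55, Junos at 0.49, Hsp90aa1 at 0.47, Hspb1 at 0.44, the MAP kinase phosphatase Dusp1 at 0.43, the nuclear receptor Nr4a1 at 0.39, Junb at 0.38, Fos at 0.38 and the mRNA-decay factor Zfp36 at 0.38. Gm20481 shares the exon of Hspa1a and Junos shares 232 exonic bases with Jun, so neither is a separate observation. Lowest were Lars2 at -0.23, Mir6240 at -0.20, Sparc, a matricellular protein gene, at -0.20, and the mitochondrial genes mt-Nd4 at -0.19 and mt-Nd1 at -0.18.

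Lists of related genes are read beside the 0.435% of all genes that reached 0.2 with the pair, or 1.07% of genes at least as abundant as Dnajb1. The lists differ in abundance, with a median of 249.9 CPM for the immediate early genes, 82.3 for the cytosolic heat shock response, 141.3 for the ER list and 207.2 for the mitochondrial and TRiC list. Of the immediate early genes, 15 of 24 reached a rho of 0.2 with the pair, and the median was 0.25. The lowest of them were the survival gene Mcl1 at 0.052 and the NF-kB inhibitor gene Nfkbia at 0.070, although Nfkbia was abundant at 535.9 CPM. Klf2, a flow-responsive transcription factor gene, had 0.27 and Btg2, an antiproliferative gene, 0.26. Of the cytosolic heat shock response, 3 of 23 genes reached 0.2 and the median was 0.064. Among them were the HSP110 gene Hsph1 at 0.28 (0.26 to 0.34 over plates) and Hsp90ab1 at 0.22 (0.13 to 0.30). The HSP40 gene Dnaja1 had 0.19, Fkbp4, a co-chaperone of HSP90, 0.018, Cacybp 0.0027 and Hsf1 itself -0.017. Of the ER chaperones and unfolded protein response genes, 0 of 23 reached 0.2 and the median was 0.021. This held for Hsp90b1, the HSP90 of the ER, at -0.048, the disulfide isomerases Pdia3 at 0.021 and P4hb at 0.060 and the lectin chaperone Canx at -0.022, all above 400 CPM. The highest of the list were Dnajb9 at 0.079 and the stress transcription factors Ddit3 at 0.076 and Atf4 at 0.075. Of the constitutive mitochondrial and TRiC chaperones, 0 of 11 reached 0.2, with a median of 0.035 and a highest value of 0.076 for the TRiC subunit Cct5.

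With Hspb1 in place of the pair, 15 of 24 immediate early genes reached 0.2 (median 0.26), against 0.373% of all genes tested. With Hsp90aa1 it was 7 of 24 (0.15), against 0.211% of all genes, and with Hspa8 3 of 24 (0.14), against 0.149%. With Dnajb1 and Hspa5 almost no gene of the table reached 0.2, so medians are given instead. The median of the immediate early genes was 0.10 with Dnajb1, against 0.026 over all genes, and 0.075 with Hspa5, against 0.022. The ER list had a median of 0.054 with Hspa5.

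**Figure D4:**
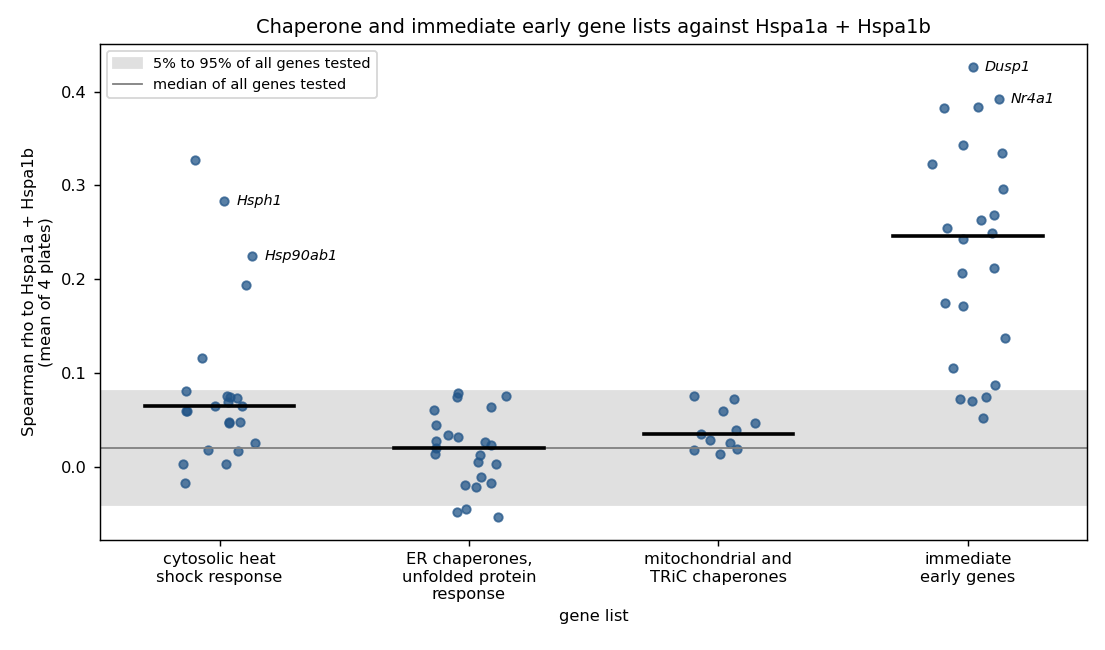
Spearman's rho of single genes (points) with the sum of Hspa1a and Hspa1b, mean of 4 plates, for 4 gene lists (horizontal axis); the black bar is the list median, the grey band the range of 5% to 95% of all genes tested and the grey line their median of 0.020. Immediate early genes lie mostly above the band, the ER and mitochondrial lists mostly inside it, and Hsph1 and Hsp90ab1 are among the 3 genes of the cytosolic list at 0.2 or above.

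Measures of the cells themselves were also ranked against the pair. Its rho was 0.001 with the number of reads of a cell, 0.12 with the number of genes read at fixed depth, and -0.17 with the mitochondrial share of reads (-0.29 to -0.063 over plates). The last of these was well below the range of -0.041 to 0.081 from 5% to 95% of single genes, and the number of genes read was above it. Jun also had -0.20 with the mitochondrial share. The part of this share in the relation of the pair with Jun was not tested. For the summed markers of the 8 other cell types, rho with the pair lay between -0.051 and 0.051. Without the 23 cells that carried such markers, the rho of the pair with Jun was 0.55 and with Fos 0.38.

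Kinds of endothelial cell were told apart by clustering without the chaperones and immediate early genes, and clusters were named from markers. This gave 136 arterial-like, 126 venous-like, 110 angiogenic-like and 259 capillary-marker cells, while 556 cells stayed unnamed. Among the unnamed was a cluster of 81 cells with 7 of 7 measured microglia markers 1.5-fold up against all other cells. Another of 79 cells had 5 of 5 fibroblast markers up, and another of 33 cells had 4 of 4 pericyte markers up. The largest, of 208 cells, had 6 of 10 venous and 5 of 9 angiogenic markers up. The classes were spread unevenly over plates 521 to 524, with 32, 28, 92 and 107 capillary-marker and 37, 40, 19 and 14 angiogenic-like cells. A class sum over all plates therefore also carries plate differences. Of the chaperones, 1 of 7 was 1.5-fold or more apart between the highest and lowest class, while 56.7% of all genes were. That gene was Hspa5, with 622.9 CPM in arterial-like, 558.6 in venous-like, 538.2 in angiogenic-like and 408.6 in capillary-marker cells, or 1.52 times more in arterial-like than in capillary-marker cells. It was higher in arterial-like cells on 4 of 4 plates, by 1.42 to 1.59 times. In the remaining 6 the ratio of highest to lowest class was 1.05 for Hspb1, 1.16 for Hspa1b, 1.19 for Hspa1a and for Hspa8, 1.20 for Hsp90aa1 and 1.46 for Dnajb1, and none kept its direction on all plates. Arterial-like cells had the most Hspa1a, at 537.3 CPM, and the least Hspa8, at 425.5 CPM. Fos was more uneven, with 1580 CPM in arterial-like, 729.3 in venous-like, 738.5 in angiogenic-like and 663.8 in capillary-marker cells, but its range over plates within arterial-like cells was 1039 to 1979 CPM. The classes depend on the clustering, and the Hspa5 difference sits at the threshold. At Leiden resolution 2 only 3 classes were named and none was venous-like, so ratios there are over fewer classes. The Hspa5 ratio was then 1.35, with 590.8 CPM in arterial-like and 586.0 in angiogenic-like cells. Dnajb1, which was highest in venous-like cells in the main clustering, was the 1 chaperone past 1.5-fold, at 1.77. With 4000 in place of 2000 variable genes, 4 of 7 chaperones passed, and no share over all genes is given for that setting. They were Hspa1b at 2.24, Dnajb1 at 1.69, Hspa5 at 1.66 and Hspa1a, which sat at the threshold. Hspa1a, Hspa1b and Dnajb1 were lowest in angiogenic-like cells, whereas Hspa5 was highest there, at 641.8 CPM. The small class ratios of Hspa1a and Hspa1b in the main clustering therefore also depend on the setting. Without plate 521 the Hspa5 ratio was 1.49 and without plate 523 it was 1.48, both under 1.5-fold, while Dnajb1 passed at 1.95 and 1.62. Without plate 524 both passed. Capillary-marker cells had the least Hspa5 under each of these alternatives.

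**Figure D5:**
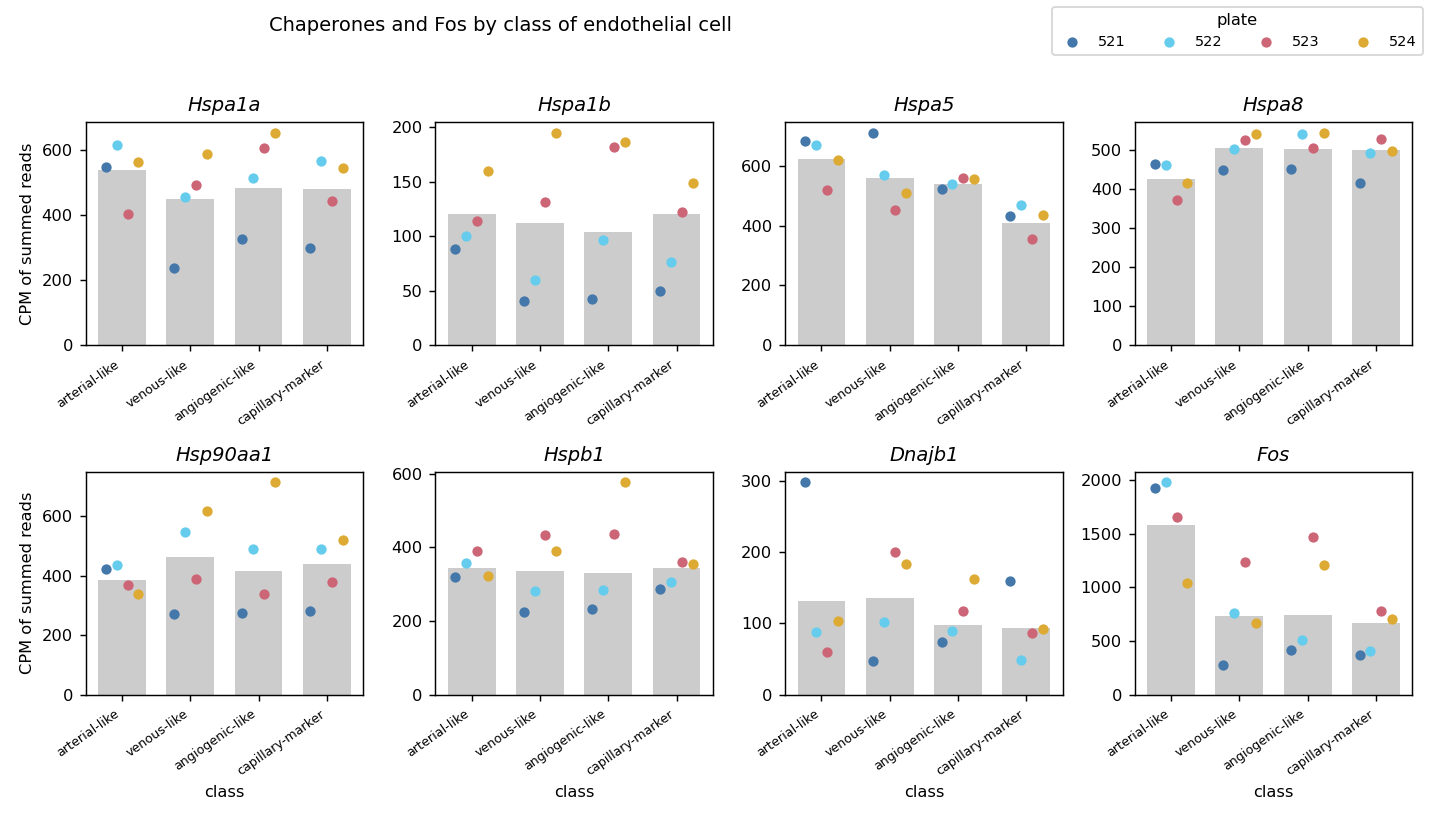
CPM of summed reads (bars from 0, vertical axis) of the chaperones and Fos in arterial-like, venous-like, angiogenic-like and capillary-marker cells; coloured points are the same class on single plates. Plates spread more widely than classes for Hspa1a, Hspa1b, Hspa8, Hsp90aa1, Hspb1 and Dnajb1. Hspa5 is lowest in capillary-marker cells and Fos is highest in the arterial-like bar.

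As a mean over plates, the relation with Jun was present within each named class, but not on every plate. The unnamed cells were not ranked this way. Averaged over plates, the rho of the pair with Jun was 0.41 in arterial-like cells (0.23 to 0.48), 0.57 in venous-like cells (0.45 to 0.71), 0.37 in angiogenic-like cells (0.062 to 0.50) and 0.64 in capillary-marker cells (0.59 to 0.68). With Hsp90aa1 it was 0.41, 0.54, 0.64 and 0.37 in the same classes, and with Hspb1 0.28, 0.47, 0.64 and 0.39. With Hspa5 it was -0.024, 0.11, -0.12 and 0.063. The value of 0.062 with Jun was that of the 37 angiogenic-like cells on plate 521. A class holds as few as 14 cells on a plate, and differences between classes were not tested.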

How the data were processed

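Single cells were sequenced by Smart-seq2. The authors deposited 1 table of whole-number counts of reads per gene; the submitters' processing notes name featureCounts, Subread 1.4.6-p5, TopHat2 2.1.1 and SAMtools 0.1.18, and the builds GRCm38 and mm10, per the labels. Settings for strand and for multi-mapping reads are not given in the sources used here. The members and gene lists were chosen with earlier results of these data known. Levels are CPM of counts summed over cells. Shares and Spearman's rho used each cell thinned to 100000 reads, which lost no cell; rho was taken within plates over genes at 20 CPM or more and read in at least 10% of cells. No doublet caller was run. With 1 pooled sample there was no test. By rule, the text draws its names from all 7 members with Fos and Jun, the genes of each list highest in CPM or highest and lowest in rho, and the genes highest and lowest in rho over the table. 1 gene that this rule names is not reported here. Clusters came from scanpy 1.11.5 (Leiden, resolution 1, 15 neighbours, 30 components, 2000 variable genes). A cluster took a name when at least 3 markers, and the share 0.5 of those measured, were 1.5-fold up. It also needed a marker of that class among its 10 leading genes, or 3 such markers for a type other than endothelium. No other type could have more markers there. Capillary-marker clusters did not meet this rule, but had the share 0.7 of their markers higher and no marker of another type among their leading genes. The values by range of Jun or Fos, rho within classes and the comparison with abundant genes were added after values had been seen. edgeR 4.0.16 and DESeq2 1.42.0 gave size factors on plate sums only, as alternatives. Gene coordinates and exon lengths are from GENCODE M21 on GRCm38. The steps were tested on simulated data.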

Additional observations from a re-analysis of the deposited data

How the results depend on the processing

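No paired analysis was possible because no column could be given a genotype and no test was made. Of 287 alternative values, 273 stayed within the standard deviation over plates, or within 1.5 times for counts, and 14 moved. Many of the 287 leave out 1 plate. This cannot move a mean rho of 4 plates past that deviation, and can hardly move a CPM past it. The number that stayed is therefore no measure of how firm the results are. The number of chaperones 1.5-fold or more apart between plates was 2; it was 1 without plate 521 and 3 with CPM averaged over single cells or without cells carrying markers of another cell type. The number apart between classes was 1 (Hspa5). It was also 1 at resolution 2, with 3 named classes, and without plate 521 or 523, but then Dnajb1 and not Hspa5. It was 4 with 4000 variable genes and 2 without plate 524, both with the cause not tested. Resolution 0.5 left 1 named class and so gave no value. Over 11 settings each, rho of the Hspa1 pair ranged from 0.51 to 0.59 with Jun, from 0.35 to 0.44 with Fos and from 0.022 to 0.11 with Hspa5, and rho of Hspa1a with Hspa1b from 0.83 to 0.87. Leaving out cells with other markers, and single plates for plate and class counts, were chosen after seeing the data. Between 50000 reads and full depth the share of cells with a read ran from 31.3% to 37.6% for Dnajb1 and from 71.9% to 79.5% for the pair, so these shares are for a given depth.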
